A study of Mus musculus with 12 samples.

Results

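The inflammasome and pyroptosis genes are 10 rows of the expression table, chosen by gene symbol, with earlier results of these data known: the sensors Nlrp3, Nlrp1b, Aim2, Nlrc4, Naip2 and Naip5, the adaptor Pycard, the caspases Casp1 and Casp4, and the pore-forming protein Gsdmd. They are 10 of the 55291 genes listed, and all 10 were found. They were followed in alveolar macrophages, which take up particles and microbes in the air spaces and which had been flow-sorted from lungs of female C57BL/6NJ mice aged 8 to 11 weeks. One group of 6 mice had breathed filtered air and the other group of 6 had breathed 0.8 ppm ozone, for 4 h a day on 4 days in a row, and lungs were taken 3 days afterwards. No allele or agent other than the exposure set the groups apart in the labels, and both groups shared strain, sex, age range and sorting protocol. Each mouse gave 1 library. The cells were sorted in 2 batches with 3 mice of each group in each.

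Inflammasomes are protein platforms that assemble in the cytosol when a sensor meets a microbial product or a sign of cell damage. The sensor recruits the adaptor ASC (encoded by Pycard) and caspase-1, and caspase-1 then matures the cytokines IL-1β and IL-18 and cuts gasdermin D, whose freed part forms pores in the plasma membrane and ends in the lytic cell death called pyroptosis. In the non-canonical branch, the caspase encoded by Casp4 in mice (caspase-11) binds bacterial lipopolysaccharide in the cytosol and cuts gasdermin D itself. Alveolar macrophages carry this machinery at the air surface, where inhaled particles and microbes meet it. Much of its control lies in protein assembly and cleavage, which transcript measurements do not see.

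Sequences were looked at for what they say about the reads of each gene. Naip2 and Naip5 are neighbouring copies on the minus strand of chromosome 13, at chr13:100144063-100202092 and chr13:100211739-100246323 (GRCm38, GENCODE), with 9646 bases between them. Their coding sequences were 87.1% identical in a global alignment. Of all 50-base words in the transcripts of Naip2, 19.1% also occurred in a transcript of another gene, most often Naip1 (12.3%), and 9.40% occurred in Naip5. For Naip5 the shared portion was 36.8%, most often with Naip6 (22.2%), and 8.83% was shared with Naip2. Nlrp1b shared 1.5% of its words, mostly with Nlrp1a, Nlrc4 shared 1.1% and Aim2 shared 0.771%. Nlrp3, Pycard, Casp1, Casp4 and Gsdmd shared 0. Reads were 50 bases long, and how the authors' counting divided reads among the Naip copies is not given in the sources used here. The values of Naip2 and Naip5 are therefore more uncertain on this account than those of the other members. The longest identical run in the coding sequences of Naip2 and Naip5 was 140 bases, and its first 60 bases are shown because a single read inside them carries no base that tells the genes apart. They lie in coding exon sequence, in exon 10 of 15 of Naip2 (chr13:100161722-100161781) and in exon 9 of 14 of Naip5 (chr13:100223054-100223113), counted in the transcripts with the longest coding sequence.
Naip2 and Naip5 shared run: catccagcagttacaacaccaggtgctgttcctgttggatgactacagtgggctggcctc

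The 250 bases before a start listed in the RefSeq table are shown for Nlrp3 and Naip2, the members whose differences between groups had intervals that left out 0, and for Naip5, the copy of Naip2 whose difference was near 0. For Nlrp3, which has more than 1 start in the table, the window at the most upstream start is shown. The Naip5 window lies inside the RefSeq span of that gene (chr13:100211735-100250930), which reaches further upstream, and outside its GENCODE span. Capitals mark a match to the kappa-B motif, the site bound by NF-κB factors, which prime Nlrp3 transcription in macrophages.
Nlrp3, chr11:59541319-59541568, plus strand: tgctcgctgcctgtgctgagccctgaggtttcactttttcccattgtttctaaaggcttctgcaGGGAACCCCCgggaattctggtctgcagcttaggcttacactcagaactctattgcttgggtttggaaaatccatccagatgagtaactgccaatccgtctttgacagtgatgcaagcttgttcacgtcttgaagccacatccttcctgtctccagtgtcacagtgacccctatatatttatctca
Naip2, chr13:100202123-100202372, minus strand: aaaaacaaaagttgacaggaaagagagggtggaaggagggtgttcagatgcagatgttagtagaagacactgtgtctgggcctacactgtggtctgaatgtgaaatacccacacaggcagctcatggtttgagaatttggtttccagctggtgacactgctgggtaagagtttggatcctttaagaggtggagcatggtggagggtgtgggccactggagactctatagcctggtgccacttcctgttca
Naip5, chr13:100247337-100247586, minus strand: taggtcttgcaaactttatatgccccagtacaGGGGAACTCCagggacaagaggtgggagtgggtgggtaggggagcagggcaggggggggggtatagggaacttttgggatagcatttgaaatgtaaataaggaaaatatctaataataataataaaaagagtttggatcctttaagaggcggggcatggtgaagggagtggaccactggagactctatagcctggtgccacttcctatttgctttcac
The windows of Naip2 and Naip5 were 55.9% identical, less than their coding sequences, but the starts behind them may not be equivalent. A kappa-B match stood 186 bases before the start in Nlrp3 and 218 bases before it in Naip5, and the Naip2 window held none. Of the 9 members with a window in the RefSeq table (GRCm38.p6), 3 held a kappa-B match on either strand, namely Nlrp3, Casp4 and Naip5, in 4 of the 12 windows of the members, against 3.90% of all 32851 windows. The pair of matches in Casp4 overlapped each other, at 93 and 92 bases before its upstream start. Both Casp4 windows hold this same stretch, so it is counted in each of them. The other Nlrp3 window, at the downstream start, held no kappa-B match. The PU.1 core GAGGAA, the site of a transcription factor that specifies macrophages, stood in 5 of the 12 windows (1 each of Nlrp3, Nlrp1b, Aim2, Pycard and Casp1) against 23.3% of all windows. The AP-1 motif TGANTCA, for factors of the Fos and Jun families, was in 0 of the 12 and 6.75% of all windows. Such matches describe letters in these windows and say nothing of binding.

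Expression was deposited as variance-stabilized, batch-corrected values on a log2 scale, in which the filtered-air mean of every gene is 0. A value is therefore a difference from the filtered-air mean, the abundance of each gene was not kept, and the members cannot be ranked by level. The transformation compresses differences of genes with few reads. Total reads per library are unknown. In none of the 12 mice did any of the 10 members sit at the lowest value of its batch shared with another mouse. Such a shared lowest value was taken to stand for no reads, and a single mouse of a batch without reads would not be marked. Values over all genes ran from -1.31 to 1.264, and those of the 10 members from -0.287 to 0.232.

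None of the 10 inflammasome and pyroptosis genes passed the test between ozone and filtered air (limma, Benjamini-Hochberg adjusted over 19633 genes, adjusted p under 0.05). Over all genes tested, 834 did, which is 4.25%, with 473 higher after ozone (2.41%) and 361 lower (1.84%). At an unadjusted p under 0.05, 2 of the 10 passed, Nlrp3 (lower) and Naip2 (higher), against 16.7% of all genes. In 0 of the 10 did the 6 ozone mice lie wholly above or wholly below the 6 filtered-air mice, and over all genes this held for 3.53%. Differences of the members (ozone minus filtered air) ran from -0.166 to 0.122 with a median of -0.0166, beside -0.00326 over all genes, and 4 were above 0 and 6 below. In the order of their differences, Nlrp3 came lowest, followed by Gsdmd, Nlrc4, Aim2, Casp1, Nlrp1b, Naip5, Pycard, Casp4 and Naip2. Steps between neighbours in that order were smaller than the standard errors of both genes, except that the step from Nlrp3 to Gsdmd exceeded both errors and the step from Casp4 to Naip2 exceeded that of Naip2.

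**Figure D1:**
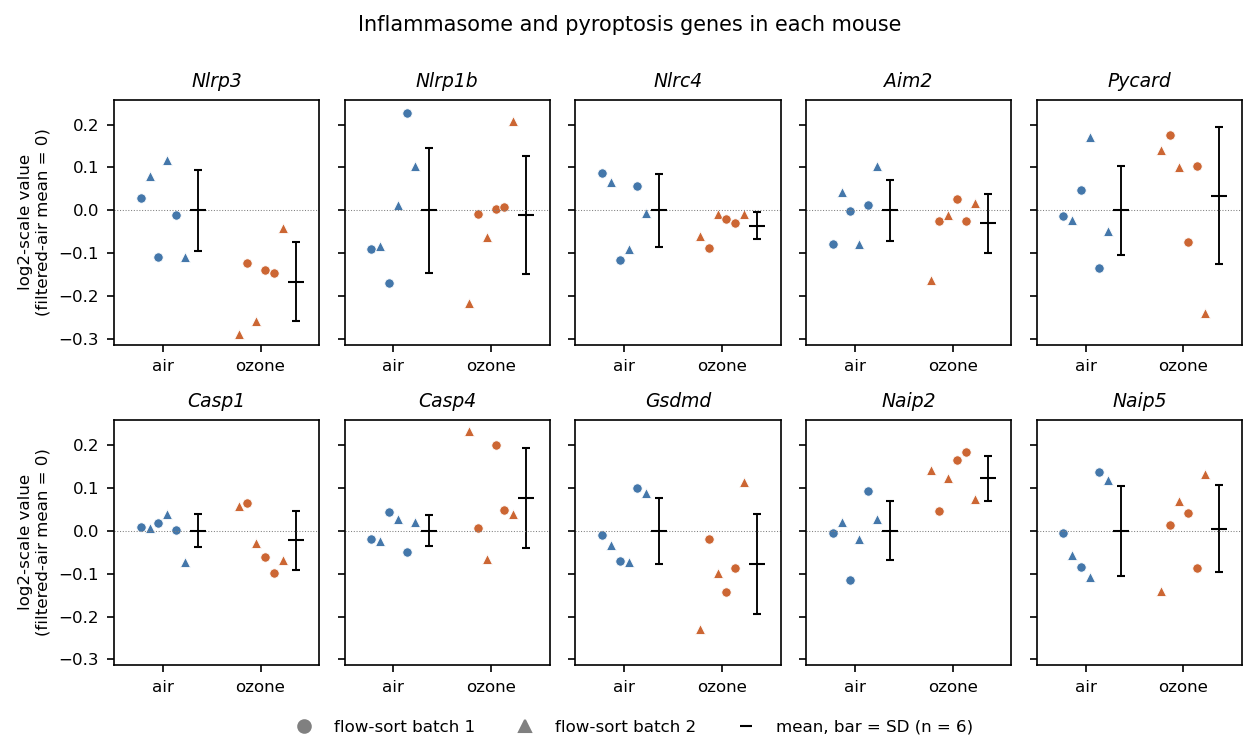
Value of each of the 10 genes in each mouse (vertical axis, log2-scale value with the filtered-air mean at 0), with circles for flow-sort batch 1, triangles for batch 2, and the mean with its SD (n = 6) beside each group. Nlrp3 lies lower in 5 of 6 ozone mice than in any filtered-air mouse, Naip2 lies higher in 4 of 6, and the groups overlap in all 10 genes.

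Nlrp3, the sensor that answers potassium efflux and other signs of membrane or organelle damage and whose transcription is itself induced by priming signals, had the lowest p of the members. It lies at chr11:59541568-59566956. In filtered-air mice 1 to 6 its values were 0.029, 0.079, -0.109, 0.118, -0.011 and -0.107. In ozone mice 1 to 6 they were -0.287, -0.123, -0.259, -0.138, -0.147 and -0.042. All 6 ozone mice lay below 0, and 5 of them lay below the lowest filtered-air mouse, with ozone mouse 6 as the exception. In ozone mice the mean was -0.166 ± 0.0912 (SD, n = 6), and in filtered-air mice it was 0 ± 0.0943 (SD, n = 6). The difference was -0.166 (SE 0.0531, limma adjusted p = 0.105), with a 95% interval of -0.280 to -0.0521. It was -0.106 in batch 1 and -0.226 in batch 2, so it had the same sign in both. Its unadjusted p of 0.00736 ranked 1377 among the 19633 genes.

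Naip2 and Naip5, the receptors that carry bacterial ligands to Nlrc4 (the inner rod of type III secretion systems for Naip2 and flagellin for Naip5), had unlike differences. In filtered-air mice 1 to 6 Naip2 was at -0.005, 0.021, -0.115, -0.020, 0.092 and 0.027. In ozone mice 1 to 6 it was at 0.141, 0.047, 0.123, 0.164, 0.183 and 0.073. All 6 ozone mice lay above 0, and 4 of them lay above the highest filtered-air mouse. The difference of Naip2 was 0.122 (SE 0.0410, limma adjusted p = 0.124), with a 95% interval of 0.0342 to 0.210, and it was 0.140 in batch 1 and 0.103 in batch 2. Naip5 had its lowest, median and highest values at -0.109, -0.030 and 0.136 in filtered air and at -0.141, 0.027 and 0.131 after ozone, so the groups spanned nearly the same range. The difference of Naip5 was 0.00457 (SE 0.0574, limma adjusted p = 0.983), with a 95% interval of -0.118 to 0.127. It was -0.0263 in batch 1 and 0.0355 in batch 2. The difference between the Naip2 and Naip5 responses was not tested.

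Nlrc4, which the Naip receptors recruit and which then polymerizes to activate caspase-1, lies at chr17:74425438-74459142. Its lowest, median and highest values were -0.116, 0.026 and 0.088 in filtered air and -0.087, -0.025 and -0.0078 after ozone. All 6 ozone mice lay below 0, yet all 6 lay inside the filtered-air range. The SD was 0.0315 over the 6 ozone mice and 0.0858 over the 6 filtered-air mice. Its difference was -0.0356 (SE 0.0422, limma adjusted p = 0.754), with a 95% interval of -0.126 to 0.0548.

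Aim2, the sensor of double-stranded DNA in the cytosol, lies at chr1:173350879-173466040. It had lowest, median and highest values of -0.078, 0.0055 and 0.102 in filtered air and -0.162, -0.018 and 0.027 after ozone. Ozone mouse 1 was the only mouse of its group outside the filtered-air range, and the other 5 lay between -0.0248 and 0.0271. The difference was -0.0297 (SE 0.0440, limma adjusted p = 0.812), and it was 0.0151 in batch 1 and -0.0746 in batch 2. Nlrp1b, a sensor set off when proteases cleave it or when its inhibitor Dpp9 is blocked, lies at chr11:71153102-71230733. Its lowest, median and highest values were -0.170, -0.035 and 0.227 in filtered air and -0.215, -0.0026 and 0.209 after ozone. The 2 groups covered almost the same span, and Nlrp1b had the largest standard error of the 10. Its difference was -0.0108 (SE 0.0739, limma adjusted p = 0.968), with a 95% interval of -0.169 to 0.148.

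Pycard encodes ASC, whose assembly into a single speck links most sensors to caspase-1, and lies at chr7:127989708-127993867. Its lowest, median and highest values were -0.135, -0.018 and 0.171 in filtered air and -0.240, 0.102 and 0.176 after ozone. Ozone mice reached both above the highest and below the lowest filtered-air mouse. The difference was 0.0345 (SE 0.0708, limma adjusted p = 0.873), with a 95% interval of -0.117 to 0.186. It was 0.102 in batch 1 and -0.0332 in batch 2, so the sign differed between batches.

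Casp1 and Casp4, the caspases of the canonical and non-canonical branches, lie 1562 bases apart on the plus strand of chromosome 9, at chr9:5298517-5307265 and chr9:5308828-5336783. Their coding sequences were 55.7% identical and shared no 50-base word. Casp1 had lowest, median and highest values of -0.072, 0.0073 and 0.038 in filtered air and -0.098, -0.045 and 0.065 after ozone. The ozone mice spread to both sides of the filtered-air mice, with an SD of 0.0687 against 0.0377 (n = 6 each). The difference of Casp1 was -0.0225 (SE 0.0391, limma adjusted p = 0.844), the smallest standard error of the 10, with a 95% interval of -0.106 to 0.0611. Casp4 had lowest, median and highest values of -0.050, 0.0013 and 0.043 in filtered air and -0.067, 0.044 and 0.232 after ozone. Ozone mice 1 and 4, at 0.232 and 0.201, stood well above the highest filtered-air mouse, and the SD was 0.116 over the ozone mice against 0.0359 over the filtered-air mice. The difference of Casp4 was 0.0765 (SE 0.0503, limma adjusted p = 0.506), with a 95% interval of -0.0313 to 0.184, and it was 0.0931 in batch 1 and 0.0600 in batch 2. The spreads of the groups were not compared by a test.

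Gsdmd, the substrate whose cleaved part forms the pyroptotic pore, lies at chr15:75862327-75867408. Its lowest, median and highest values were -0.073, -0.022 and 0.1002 in filtered air and -0.229, -0.093 and 0.114 after ozone. Of the 6 ozone mice, 5 lay below 0 and 4 lay below the lowest filtered-air mouse, while ozone mouse 6 was above every filtered-air mouse. The difference was -0.0773 (SE 0.0556, limma adjusted p = 0.556), with a 95% interval of -0.196 to 0.0417, and it was -0.0890 in batch 1 and -0.0656 in batch 2.

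The precision of these comparisons was close to that of other genes. Standard errors of the 10 members ran from 0.0391 to 0.0739 with a median of 0.0517, and the median over all genes tested was 0.0469. Genes that passed the test had absolute differences between 0.121 and 1.03 with a median of 0.253. The 95% intervals of 9 of the 10 members lay within 0.253 of 0 in both directions, and Nlrp3, whose interval reached -0.280, was the exception. Within 0.121 of 0, the smallest difference of a gene that passed, lay only the interval of Casp1 (-0.106 to 0.0611). For the other members, differences as small as those of some genes that passed are therefore not excluded.

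**Figure D2:**
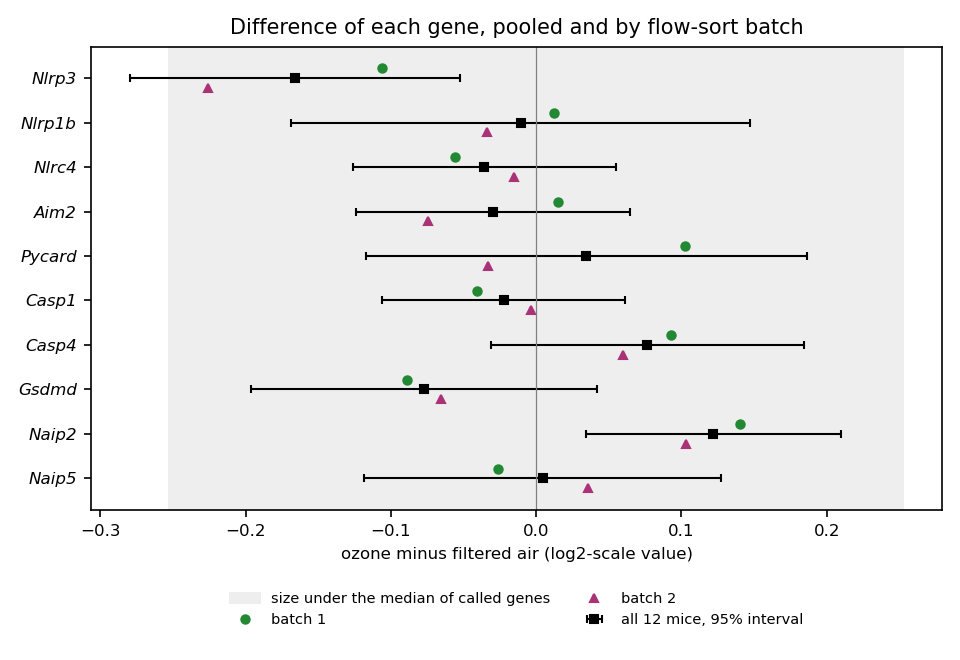
Difference of each gene between ozone and filtered air (horizontal axis, log2-scale value), as a square with its 95% interval from all 12 mice and as separate points for each flow-sort batch, over a grey band that spans the median absolute difference of called genes (0.253) to each side of 0. Nlrp3 at -0.166 and Naip2 at 0.122 have intervals that leave out 0, and 9 of the 10 intervals lie inside the band. The smallest absolute difference of a called gene was 0.121, and only the interval of Casp1 lies within that size.

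The differences within the flow-sort batches had the same sign for 6 of the 10 members, namely Nlrp3, Nlrc4, Casp1, Casp4, Gsdmd and Naip2. For Nlrp1b, Aim2, Pycard and Naip5 the sign changed. The change of the ozone difference from batch to batch, tested as an interaction term in limma, passed for 0 of the 10 members at an adjusted p under 0.05 and for 0 at an unadjusted p under 0.05. Over all genes the interaction passed for 0%, with 510 of 19633 at an unadjusted p under 0.05.

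**Figure D3:**
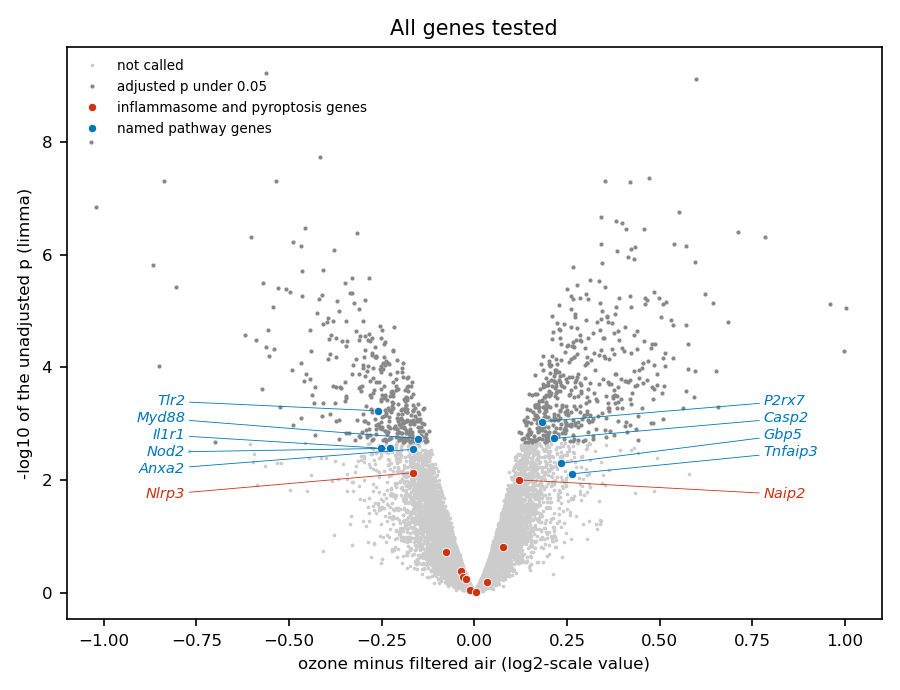
Each of the 19633 genes tested as a point, with the difference between ozone and filtered air (log2-scale value) on the horizontal axis and -log10 of the unadjusted limma p on the vertical axis. Dark grey points are the 834 genes with an adjusted p under 0.05, red points are the 10 inflammasome and pyroptosis genes, all below them, and blue points are the genes named from the pathway lists.

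The members also varied from mouse to mouse within each group. Deviations from the mean of the mouse's group and batch were correlated between members over the 12 mice, with an exact permutation of mice within each group and batch. Each pair shares the same libraries, so depth and composition of a library bear on both genes. Of the 45 pairs, 0 had an adjusted p under 0.05 (Benjamini-Hochberg over the 45), 24 correlations were positive and 21 negative, and the median was 0.0141. The strongest was between Nlrp1b and Gsdmd (Pearson r = 0.872, exact permutation p = 0.0100, adjusted p = 0.212; Spearman rho = 0.769, exact permutation p = 0.0293). Without the 2 mice farthest from the median of Nlrp1b, r was 0.771. Naip5 correlated with Gsdmd at r = 0.824, with Nlrp1b at 0.815 and with Aim2 at 0.798, and none of these passed after adjustment. Pycard went against that set, at r = -0.717 with Naip5 and -0.708 with Nlrp1b. Gsdmd, Nlrp1b and Naip5 were all lowest in ozone mouse 1 and all highest of the ozone group in ozone mouse 6.

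**Figure D4:**
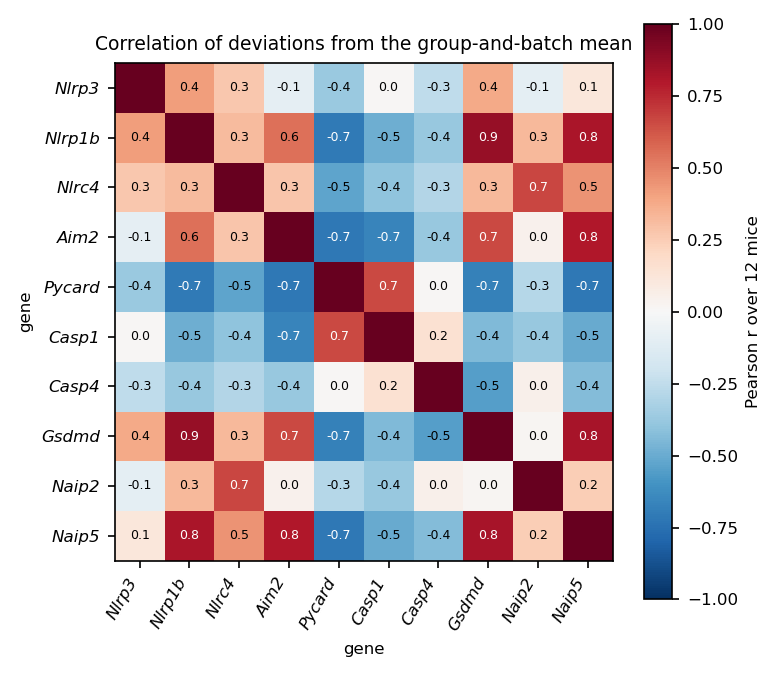
Pearson correlation over 12 mice (colour scale from -1 to 1) between each pair of the 10 genes, computed on deviations from the mean of the mouse's group and flow-sort batch. Nlrp1b, Gsdmd and Naip5 correlate at 0.815 to 0.872, and Pycard is negative with each of them.

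The genes whose values followed Nlrp3 most closely over the 12 mice, among 19632 others, were Kdm6b (Pearson r = 0.947), a histone demethylase, Impdh1 (r = 0.904), an enzyme of guanine nucleotide synthesis, and Klhdc4 (r = 0.898). These r include the difference between the groups and are given as a description. Kdm6b differed by -0.159 (SE 0.0518, limma adjusted p = 0.111), Impdh1 fell by 0.194 (SE 0.0461, limma adjusted p = 0.0286) and Klhdc4 differed by -0.0688 (SE 0.0317, limma adjusted p = 0.290).

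Around the 10 members stand the genes that prime, trigger, restrain or carry out inflammasome responses. In 7 lists these came to 106 genes, all in the table, of which 103 could be tested and 4 passed, or 3.88% beside 4.25% of all genes. Of these 4, 2 rose and 2 fell. At an unadjusted p under 0.05 there were 25, or 24.3% beside 16.7%. The median difference over the 103 was 0.0110. Ozone and filtered-air mice were fully apart in 3 of the 103, beside 3.53% of all genes. Nlrx1 and Dpp9 were among these 3 and are named because of those values.

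Licensing and activation of NLRP3 held 3 of the 4 calls among its 19 genes, 1 higher and 2 lower, with a median of 0.00189. P2rx7, the ATP-gated channel that lets potassium out of the cell, rose after ozone by 0.184 (SE 0.0441, limma adjusted p = 0.0293). Its values ran from -0.064 to 0.074 in filtered air and from 0.054 to 0.294 after ozone, so ozone mouse 1 alone lay inside the filtered-air range. Tlr2, the receptor of bacterial lipoproteins, fell, with a difference of -0.261 (SE 0.0593, limma adjusted p = 0.0225), and its values ran from -0.149 to 0.153 in filtered air and from -0.395 to -0.084 after ozone. Myd88, the adaptor of most Toll-like receptors and of the IL-1 receptor, fell, with a difference of -0.151 (SE 0.0394, limma adjusted p = 0.0460), and 5 of its 6 ozone mice lay below all filtered-air mice. With 1 mouse left out, P2rx7 passed only without filtered-air mouse 2 or 6 or ozone mouse 1 or 6, Myd88 passed only without ozone mouse 1 or 5, and Tlr2 did not pass without filtered-air mouse 1 or 2 or ozone mouse 3 or 5, with limma adjusted p up to 0.0725, 0.110 and 0.0588 respectively. Among the 11 other settings tried, P2rx7 missed the threshold in 4, Tlr2 in 3 and Myd88 in 7.

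Among the 16 genes of apoptosis and necroptosis, Casp2 was called higher and 0 lower, with a median of 0.0272 and 13 of 16 above 0. Casp2, an initiator-type caspase linked to genome damage, rose by 0.216 (SE 0.0564, limma adjusted p = 0.0459). It was 0.0967 in batch 1 and 0.335 in batch 2, and with 1 mouse left out it passed only without filtered-air mouse 3 or ozone mouse 1 or 2, with limma adjusted p up to 0.110. It missed the threshold in 6 of the 11 other settings.

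The other 5 lists held no called gene, and their member with the smallest p is given for each. In other sensors and scaffolds (13 tested, 4 at an unadjusted p under 0.05, median 0.000659) it was Nod2, the sensor of muramyl dipeptide, with a difference of -0.228 (SE 0.0630, limma adjusted p = 0.0583). In inhibitors of inflammasomes and caspases (17 tested, 4 at an unadjusted p under 0.05, median -0.0128) it was Tnfaip3, the ubiquitin-editing enzyme A20 that restrains NF-κB, with a difference of 0.264 (SE 0.0851, limma adjusted p = 0.108). In the caspase-11 and guanylate-binding protein pathway (14 tested, 4 at an unadjusted p under 0.05, 11 above 0, median 0.0685) it was Gbp5, a GTPase that coats intracellular bacteria, with a difference of 0.233 (SE 0.0703, limma adjusted p = 0.0832). In cytokine substrates and IL-1 family signalling (13 tested, 2 at an unadjusted p under 0.05, median -0.00711) it was Il1r1, the IL-1 receptor, with a difference of -0.253 (SE 0.0698, limma adjusted p = 0.0580). In pore formation, rupture and membrane repair (13 tested of 15, 3 at an unadjusted p under 0.05, median -0.0381) it was Anxa2, a calcium-dependent membrane-binding protein, with a difference of -0.165 (SE 0.0457, limma adjusted p = 0.0596). With 1 mouse left out, Nod2 passed without filtered-air mouse 5 (limma adjusted p = 0.0288), Tnfaip3 without filtered-air mouse 4 (lowest 0.0185), Il1r1 without filtered-air mouse 6 or ozone mouse 6 (lowest 0.0273) and Anxa2 without filtered-air mouse 5 or ozone mouse 1 (lowest 0.0439). Without the batch covariate Nod2 (limma adjusted p = 0.0377), Il1r1 (0.0381) and Anxa2 (0.0359) passed, and with RNA integrity as a covariate Tnfaip3 did (0.0395). Nlrx1, an NLR protein of mitochondria, differed by 0.114 (SE 0.0348, limma adjusted p = 0.0871) and Dpp9, the peptidase that holds Nlrp1b inactive, by 0.0955 (SE 0.0335, limma adjusted p = 0.142). Nlrp6, Gsdma and Gsdmc lay above the shared lowest value in too few mice to be tested.

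The substrates of caspase-1 are given outside that rule for their place in the pathway. Il1b had a difference of 0.0236 (SE 0.185, limma adjusted p = 0.972) with a 95% interval of -0.372 to 0.420, which is wide beside those of the members. Il18 had a difference of -0.00711 (SE 0.0573, limma adjusted p = 0.973) with a 95% interval of -0.130 to 0.116.

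**Figure D5:**
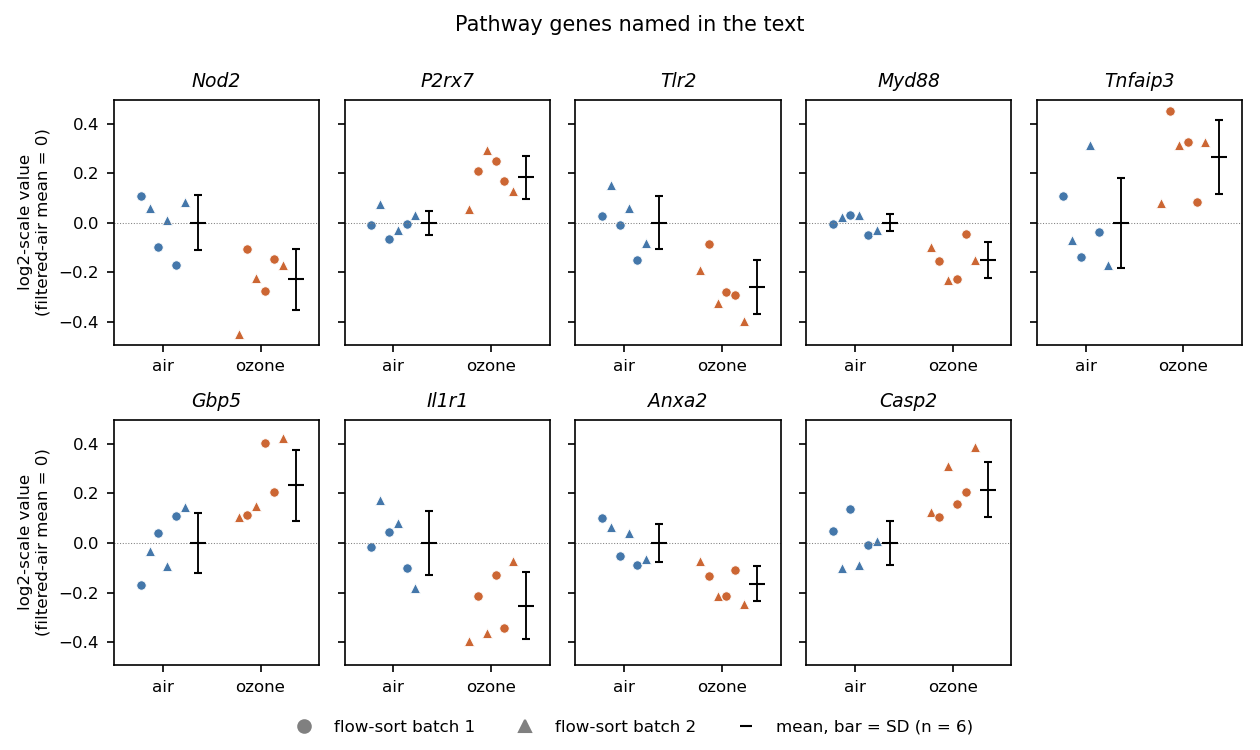
Value in each mouse (vertical axis, log2-scale value with the filtered-air mean at 0) of the 9 genes named from the pathway lists by the rule, with circles for flow-sort batch 1, triangles for batch 2, and the mean with its SD (n = 6) beside each group. P2rx7 and Casp2 passed as higher and Tlr2 and Myd88 as lower, and the groups overlap in all 9.

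All 12 alveolar macrophage markers listed, among them Siglecf, Marco, Fabp4 and Pparg, lay above the shared lowest value in all 12 mice. This also held for the 7 neutrophil markers tested and all 10 monocyte, 10 lymphocyte, 9 epithelial, 7 endothelial and 7 dendritic cell markers. It held for 6 of 7 fibroblast markers, so it does not tell cell types apart. Of the 12 alveolar macrophage markers, 5 lay above 0 and 7 below (median -0.0361), and 5 had an unadjusted p under 0.05. Chil3 and Car4 passed as higher after ozone and Krt79 as lower. The mean over the list ran from -0.0798 to 0.0985 in filtered air and from -0.0495 to 0.156 after ozone, and Marco had the largest difference in it, 0.580, which did not pass (limma adjusted p = 0.108). Markers of other cell types were thus also found above the shared lowest value in mice of both groups. Of 10 neutrophil markers 7 could be tested, and Ly6g, Camp and Ngp lay above that value in too few mice. Cxcr2 passed as higher, at 0.785, while 4 of the 7 lay below 0 (median -0.0147), Csf3r lowest at -0.267 (limma adjusted p = 0.0837). The neutrophil list mean ran from -0.184 to 0.267 in filtered air and from 0.0243 to 0.163 after ozone. Of 9 epithelial markers Epcam passed as lower and 7 lay below 0 (median -0.0442), with list means of -0.184 to 0.25 and -0.205 to -0.00323. Of 10 monocyte markers 1 passed, Chil3, which the macrophage list also holds, and 6 lay below 0 (median -0.119), with list means of -0.148 to 0.359 and -0.185 to 0.0718. The lists for dendritic cells, lymphocytes, endothelium and fibroblasts held 0 called genes (limma) and 2, 3, 1 and 2 at an unadjusted p under 0.05. Below 0 lay 6 of 7 dendritic cell markers (median -0.0794), 9 of 10 lymphocyte markers (median -0.0965), 7 of 7 endothelial markers (median -0.0905) and 3 of 7 fibroblast markers (median 0.0769). The lymphocyte list mean ran from -0.229 to 0.268 in filtered air and from -0.194 to -0.0280 after ozone, so the ozone mice lay inside the filtered-air range. In the same order, the ranges were -0.186 to 0.169 and -0.201 to 0.0665 for dendritic cells, -0.306 to 0.343 and -0.363 to 0.25 for endothelium, and -0.0888 to 0.107 and -0.109 to 0.183 for fibroblasts. The part of such cells in the values of the members and of Tlr2 and Myd88 was not tested, and in sorted bulk samples fewer cells of a type and less RNA per cell cannot be told apart. RNA integrity numbers lay between 9.2 and 9.7 after ozone and between 8.9 and 9.7 after filtered air.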

How the data were processed

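RNA of flow-sorted alveolar macrophages was sequenced in 12 mice, as paired-end 50-base reads of stranded mRNA libraries per the labels' protocols. The submitters' processing notes name cutadapt, STAR 2.7.7a, Salmon 1.5.2, DESeq2 1.26.0, limma 3.42.2, R 3.6.0 and the build mm10, with no roles. The authors deposited log2 values after a variance-stabilizing transformation and batch correction, per the deposited file's name. The labels call the mice separate biological replicates, and replicate numbers name different animals.

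From these values, genes were kept where at least 6 of 12 mice lay above the minimum shared within a batch (tolerance 1e-06), which left 19633 of 25444 varying genes. The test was that of limma 3.58.1 (R 4.3.3), two-sided, with flow-sort batch as a covariate, no variance trend and Benjamini-Hochberg adjustment over all genes kept at a threshold of 0.05. The code was checked on simulated data. The genes named are all 10 members, every called gene of the 7 pathway lists, the gene with the smallest p in each list without a call, and the 3 genes most correlated with the member of smallest p. Outside that rule, Nlrx1, Dpp9 and the cell type markers given with values were chosen after their values were seen, and Il1b and Il18 for their place in the pathway. The members and lists were chosen with earlier results of these data known. Alternatives left out each mouse, each batch, the filter or the batch covariate, and changed the scaling, the variance model or the covariates. Positions come from GENCODE M21 and promoter windows from RefSeq (GRCm38.p6), aligned with Biopython 1.88. Gene names listed under a synonym were matched through RefSeq. The values of 1 listed gene are not reported here.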

Additional observations from a re-analysis of the deposited data

Results flagged for a closer look

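The 10 members and the 9 pathway genes named by the rule were examined in each group of 6 for a mouse standing apart from the other 5, by the gap to its nearest neighbour divided by the range of the group. Of 38 combinations of gene and group, 2 passed the 95% criterion of Dixon, and about 5% of groups pass it by chance. Aim2, the cytosolic DNA sensor, was at -0.162 in ozone mouse 1, where the next lowest ozone mouse was at -0.0248 and the gap took a share of 0.726 of the range. Casp1 was at -0.0722 in filtered-air mouse 6, where the next lowest filtered-air mouse was at 0.00181 and the share was 0.669. Without ozone mouse 1 or filtered-air mouse 6, 0 of the 10 members passed the limma test.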

How the results depend on the processing

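In all settings tried 0 of the 10 members passed (limma), and the lowest adjusted p of a member was 0.0599, for Nlrp3 without ozone mouse 6. Outside the settings that left out a mouse, 105 of 110 member values kept their sign and side of the threshold. The other 5 changed sign: Naip5 to -0.00530 with RNA integrity as a covariate, Nlrp1b to 0.0119, Aim2 to 0.0151 and Naip5 to -0.0263 in batch 1 alone, and Pycard to -0.0332 in batch 2 alone. With 1 mouse left out, 110 kept both and 10 changed sign, all of Nlrp1b or Naip5, as Nlrp1b ran from -0.0597 to 0.0395 and Naip5 from -0.0236 to 0.0369. Of the others, Nlrp3 and Naip2 stayed within 1.5 times their values, and 6 moved further with no change of sign or call: Gsdmd ran from -0.120 (without ozone mouse 6) to -0.0436 (ozone mouse 1), Pycard from 0.00306 (ozone mouse 2) to 0.0954 (ozone mouse 6), Casp4 from 0.0419 (ozone mouse 1) to 0.108 (ozone mouse 3), Aim2 from -0.0471 (filtered-air mouse 4) to -0.000254 (ozone mouse 1), Nlrc4 from -0.0613 (filtered-air mouse 3) to -0.0161 (filtered-air mouse 1) and Casp1 from -0.0419 (ozone mouse 2) to -0.00570 (ozone mouse 5). The number of genes called, 834, became 171 with quantile normalization, 90 in batch 1 alone, 0 in batch 2 alone (limma, 6 mice each, with 1800 genes at an unadjusted p under 0.05 in batch 2), 611 with a variance trend, 1152 without the batch covariate, and 538 to 751 with 1 mouse left out, the lowest without filtered-air mouse 1, where 522 of the 834 remained. The cause of these changes was not tested, and some of the settings also held fewer mice. Members with no overlap between groups numbered 1 in batch 1 (Nlrp3) and 1 in batch 2 (Naip2), where 16.2% and 14.7% of all genes had none, and 0 to 1 with 1 mouse left out (Nlrp3 without ozone mouse 6, Naip2 without filtered-air mouse 5), where 4.67% and 4.55% of all genes had none. Same-numbered mice are different animals, and the correlations of their deviations ran from -0.00263 to 0.284, over 0.1 in 4 of 6 pairs, with 6 of 12 mice correlating best with their own number. With that number as a replicate block 853 genes were called, 686 of them shared with the 834, and 0 members. Under it P2rx7 (adjusted p = 0.0648) and Myd88 (0.110) did not pass, and Gbp5 (0.0398) did. Quantile normalization ended the calls of all 4 pathway genes, with differences of 0.154 for P2rx7 (limma adjusted p = 0.140), -0.225 for Tlr2 (0.168), -0.129 for Myd88 (0.174) and 0.172 for Casp2 (0.175). Total reads are unknown, so no counting interval was set on any value.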

Other observations

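Gsdmd and Naip5, which lie on different chromosomes and share no 50-base word, had a correlation of 0.999 over the 6 filtered-air mice and of 0.740 over the 6 ozone mice, computed on deviations from the batch mean. This pair was chosen after its values were seen, from 45 pairs in each group, and it is given as a description without a test.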
